A study of Mus musculus with 20 samples.

Results

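Metallothioneins and a set of zinc transporters were followed through single nuclei RNA-sequencing of the mouse hippocampus in the awake state and under general anesthesia. The 9 members, of the 32285 genes listed in the files, were the metallothioneins Mt1, Mt2 and Mt3, the exporters Slc30a1, Slc30a3, Slc30a4 and Slc30a10, and the importers Slc39a10 and Slc39a14. They were chosen by name, as the genes that buffer zinc or carry it across membranes, and because Slc30a1 had a small unadjusted p for genotype in awake CA1 nuclei. That comparison is therefore described below without a test. Each of 20 male mice, 4.5 to 5.5 months old, gave 1 library of hippocampal nuclei. The libraries labelled fAD came from hemizygous APP/PS1 mice. These mice carry mutant APP (APPSwe) and PS1ΔE9 transgenes under the mouse prion protein promoter in addition to their own genes. The libraries labelled WT came from littermates without the transgenes on the same C57BL/6J-congenic background. The awake mice were 6 WT and 3 fAD (WT-Awake and fAD-Awake), the GA mice 3 WT and 4 fAD, and the ketamine mice 2 WT and 2 fAD, by the sample labels, while the text describing the series gives other numbers of mice for the awake and GA groups, a mismatch that bears on each value compared by genotype. GA stands for 3 h of isoflurane started at 5% and kept at 1.5%, and Ketamine for 150 mg/kg ketamine with 12 mg/kg xylazine. The time under anesthesia was 3 h for the ketamine mice as well.

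Metallothioneins are small cysteine-rich proteins that bind zinc and copper in the cytosol. Mt1 and Mt2 are made by many tissues and their transcription is induced by zinc, through the metal-sensing factor Mtf1, and by glucocorticoids, whereas Mt3 is the form known from the brain. Transporters of the SLC30 family move zinc out of the cytosol, into vesicles or out of the cell, and those of the SLC39 family move it in. Hippocampal zinc is best known from the mossy fibers of dentate granule cells, where Slc30a3 loads it into synaptic vesicles. Slc30a10 is known chiefly as a manganese exporter, and Slc39a14 takes up manganese and iron as well as zinc.

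The 3 metallothionein genes lie in a cluster on chromosome 8 (GRCm38), with Mt3 at chr8:94152607-94154146, Mt2 at chr8:94172664-94173568 and Mt1 at chr8:94179082-94180327, all on the plus strand. Because their transcripts moved together from mouse to mouse, as described below, the start of each gene is shown here, from 250 bases before to 30 bases after the RefSeq start (GRCm38.p6, plus strand, windows chr8:94178839-94179118, chr8:94172368-94172647 and chr8:94152357-94152636). Capitals mark the core of the metal response element, the motif that Mtf1 binds, searched on both strands as TGCACNC or TGCGCNC.
Mt1: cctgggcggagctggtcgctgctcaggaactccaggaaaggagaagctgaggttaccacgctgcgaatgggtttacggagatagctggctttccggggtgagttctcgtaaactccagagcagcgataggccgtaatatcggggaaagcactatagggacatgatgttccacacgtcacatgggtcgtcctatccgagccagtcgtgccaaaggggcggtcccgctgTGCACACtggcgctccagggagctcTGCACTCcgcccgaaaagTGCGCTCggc
Mt2: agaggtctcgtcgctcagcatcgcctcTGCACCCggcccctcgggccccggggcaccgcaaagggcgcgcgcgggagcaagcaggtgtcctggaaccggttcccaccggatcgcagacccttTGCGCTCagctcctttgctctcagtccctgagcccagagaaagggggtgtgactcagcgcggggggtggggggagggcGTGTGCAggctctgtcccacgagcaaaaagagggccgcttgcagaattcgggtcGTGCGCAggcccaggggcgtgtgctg
Mt3: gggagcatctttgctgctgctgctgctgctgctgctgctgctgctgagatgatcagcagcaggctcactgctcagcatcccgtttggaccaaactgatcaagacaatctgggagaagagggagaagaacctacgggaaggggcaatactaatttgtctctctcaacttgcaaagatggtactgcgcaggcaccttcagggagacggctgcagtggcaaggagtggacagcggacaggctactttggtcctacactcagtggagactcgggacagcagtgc
The window of Mt1 held 3 matches, that of Mt2 4 and that of Mt3 0. Among the 32851 windows of the same length in the table, 24.1% held at least 1 match, 1.73% at least 3 and 0.405% at least 4. Of the other members, Slc30a10 and Slc30a4 had 3 matches each, 2 of those of Slc30a10 overlapping each other, Slc30a1 had 1, Slc30a3 had 1 and 0 in its 2 windows, and Slc39a10 had 0 in each of its 2. Neither window of Slc39a10 (chr1:46925747-46926026 and chr1:46853589-46853868) holds the start of that gene at the position given below. In all, 8 of the 9 members had a window, and Slc39a14 had no entry. A match of these letters is a description and not a measured site. The remaining members are at chr1:191906767-191913247 (Slc30a1, plus strand), chr5:31086106-31108237 (Slc30a3, minus), chr2:122681233-122702663 (Slc30a4, minus), chr1:185454848-185468762 (Slc30a10, plus), chr1:46807544-46892852 (Slc39a10, minus) and chr14:70303469-70351425 (Slc39a14, minus). All 9 are annotated as protein coding, and counts covered exons and introns.

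The files held 160777 nuclei and 9243992 to 25394891 unique molecular identifiers (UMIs) per mouse, with a median of 1235 to 3169 UMIs per nucleus. Nuclei were assigned to classes by marker genes, which placed 83.6% of them, and left 13.9% as possible doublets and 2.45% unassigned. In 9 classes the counts were summed per mouse and expressed as CPM, the count relative to a total for that mouse and class. That total was adjusted within each class by the TMM scaling of edgeR. Levels of different classes are therefore not on exactly the same scale. The class markers were highest in their own class for 12 of 13 astrocyte, 10 of 10 oligodendrocyte, 12 of 12 microglia, 8 of 10 dentate gyrus (DG) granule, 6 of 10 CA1 and 6 of 10 CA3 markers. It was 6 of 10 for mural, 4 of 10 for fibroblast and 7 of 10 for ependymal and choroid plexus markers. For the group assigned by subiculum and cortex markers this held for 2 of 10, so that group is called by its markers and given no cell type name. The same markers assigned the nuclei, so these counts are no independent check of the class names. The activity-regulated gene Arc in CA1 nuclei separated the awake from the anesthetized mice, at 9.08 to 34.1 CPM in the 9 awake mice, 1.70 to 4.74 in the 7 GA mice and 1.14 to 4.34 in the 4 ketamine mice. The genotype labels were not fully separated by Prnp, whose promoter drives the transgenes. Its level in CA1 nuclei was 66.6 to 490.0 CPM in libraries labelled fAD and 40.6 to 183 CPM in those labelled WT, with medians of 185 and 70.4 CPM. The ketamine mice were separated, at 172 and 185 CPM in fAD and 40.6 and 46.6 in WT, while the awake and GA ranges overlapped. Any pair of libraries shared 5 to 35 nucleus barcodes. Mitochondrial genes took 0.939% to 1.78% of the counts in mice 1 to 4 and 0.0353% to 0.336% in the others. Sets of mice with adjoining numbers, called runs here (mice 1 to 4, mice 10 to 13, mice 14 to 17, mice 18 to 20 and mice 25 to 29), are followed below although the labels name no batch. The numbers from 10 to 20 have no gap, so the cuts after mouse 13 and mouse 17 were set here and come from no label. The study's methods say that tissue was handled in batches of 4 mice, 1 from each awake and GA group, and by the labels mice 1 to 4 and mice 14 to 17 were so composed and mice 10 to 13 were not. All ketamine mice belonged to the last run, whose only awake animal was mouse 29. Mouse 12 had too few microglia for that class.

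Mt1, Mt2 and the manganese exporter Slc30a10 were at their highest, among the 9 classes, in astrocyte nuclei. Mt1 reached 449 ± 375 CPM (SD, n = 20) in astrocytes and was higher there than in microglia, the next class at 223 ± 292, in 19 of 19 mice. Oligodendrocytes had 159 ± 177 and oligodendrocyte precursors (OPCs) 89.7 ± 101 CPM of Mt1, and the 5 neuronal groups had means of 29.0 to 51.6. The order of microglia and oligodendrocytes for Mt1 did not differ beyond the spread, with microglia higher in 12 of 19 mice. Mt2 followed with 128 ± 93.1 CPM in astrocytes, 32.2 ± 45.9 in microglia, 29.2 ± 24.4 in oligodendrocytes and 6.50 to 9.39 in neurons. Mt3 was less restricted. Its level was 182 ± 275 CPM in microglia, 161 ± 165 in astrocytes and 114 ± 154 in oligodendrocytes, and microglia exceeded astrocytes in only 7 of 19 mice, so that these neighbours did not differ.

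**Figure D1:**
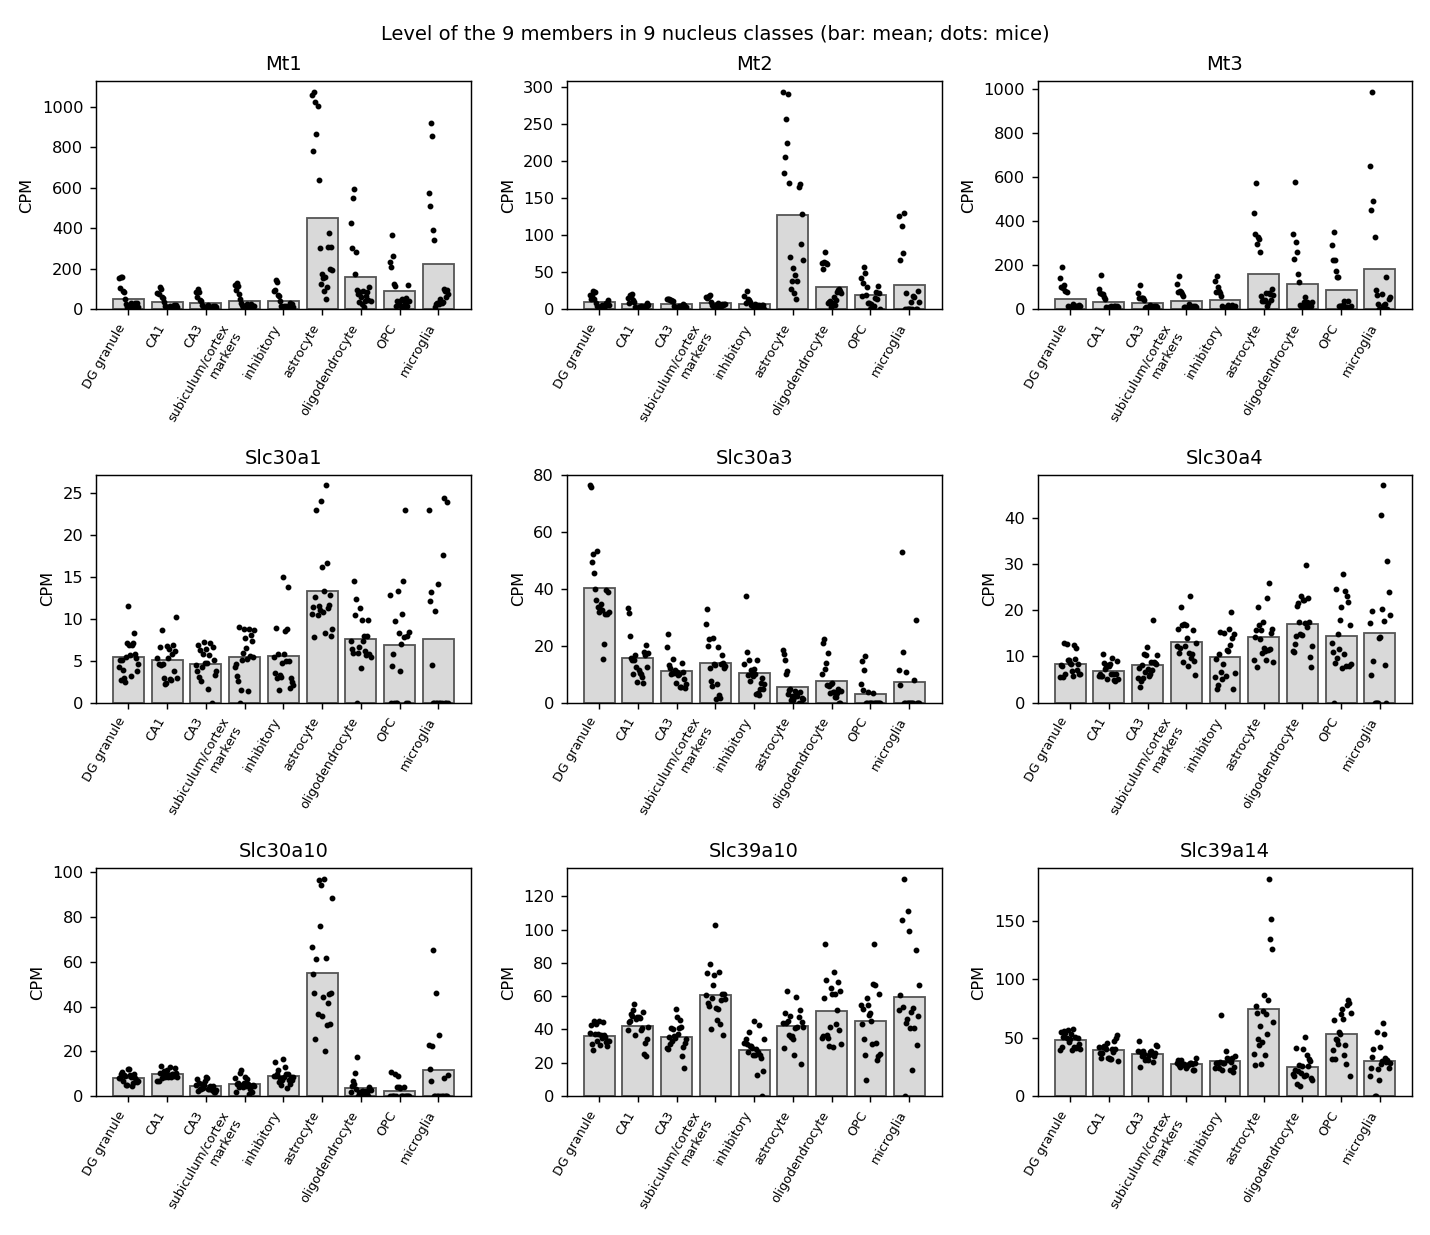
Level of each member (y axis, CPM, a separate scale for each gene) in the 9 classes of nuclei (x axis), with bars for the mean over mice and dots for single mice. Mt1, Mt2 and Slc30a10 have their tallest bar in astrocytes (449, 128 and 55.1 CPM) and Slc30a3 in DG granule nuclei (40.2 CPM), while the Slc39a10 bars run from 27.6 to 60.4 CPM.

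Among the exporters, Slc30a3, the vesicular transporter, was at 40.2 ± 15.5 CPM in DG granule nuclei and exceeded CA1 nuclei, the next class at 15.7 ± 7.18, in 20 of 20 mice. From CA1 on, its neighbours in the order (the subiculum and cortex marker group at 14.0, CA3 at 11.0 and inhibitory nuclei at 10.5) lay within each other's spread. Slc30a10 was at 55.1 ± 24.3 CPM in astrocytes and at 2.26 to 11.6 in the other 8 classes. The 11.6 CPM of microglia pooled 22.9 CPM in 8 awake mice, 4.14 in GA and 2.03 in ketamine mice, from at most 5 UMIs in a mouse, and this pair had too few counts for the test. Slc30a1, which exports zinc across the cell membrane, was at 13.3 ± 5.29 CPM in astrocytes and at 4.66 to 7.56 elsewhere, a low level that rested on 4 to 26 UMIs per mouse in CA1. Slc30a4, which fills intracellular vesicles, ranged from 6.94 ± 1.70 in CA1 to 17.0 ± 5.57 in oligodendrocytes, and its 4 highest classes (oligodendrocytes, microglia, OPCs and astrocytes) were not separated by their spread. Of the importers, Slc39a14 was at 75.0 ± 43.2 CPM in astrocytes, 53.2 ± 19.4 in OPCs and 47.9 ± 6.05 in DG granule nuclei. That order held only with the anesthetized mice included, since in the 9 awake mice the means were 44.1 CPM in astrocytes, 50.4 in OPCs and 47.1 in DG granule nuclei, within each other's spread. As a ratio of highest to lowest mean over the 9 classes, Slc39a10 differed less than the other members, from 27.6 ± 10.2 in inhibitory nuclei to 60.4 ± 15.3 in the subiculum and cortex marker group.

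Endothelial nuclei, too few per mouse for a test, had more Slc39a10, Slc30a1 and Slc30a4 than any of the 9 classes. In 607 endothelial nuclei pooled over mice, of which 250 came from fAD-Awake mouse 10, Slc39a10 was at 563 CPM (95% Poisson interval 524 to 604), Slc30a1 at 225 (201 to 252), Slc30a4 at 35.0 (25.8 to 46.4), Slc30a10 at 75.2 (61.3 to 91.1) and Mt1 at 447 (413 to 484), whereas Slc39a14 was at 3.65 (1.18 to 8.51). In 791 nuclei with ependymal and choroid plexus markers 3 of these genes went the other way. Slc39a14 was at 108 CPM (90.1 to 128), Slc39a10 at 13.9 (8.08 to 22.2) and Slc30a1 at 7.34 (3.36 to 13.9). Slc30a4 did not, at 27.7 CPM (19.2 to 38.8), an interval that overlapped the endothelial one. It too lay above the means of the 9 classes. The astrocyte means of Slc30a10, 55.1 CPM over the 20 mice and 77.3 CPM over the 9 awake mice, lay on either side of the endothelial value. Without mouse 10, the endothelial levels were 429 CPM for Slc39a10 (382 to 481), 236 for Slc30a1 (201 to 275), 30.3 for Slc30a4 (18.7 to 46.2), 66.3 for Slc30a10 (48.5 to 88.4) and 578 for Mt1 (523 to 637). These intervals cover counting error only. Levels of these pooled nuclei are relative to their raw UMI totals, whereas those of the 9 classes used adjusted totals. The scales thus differ, and the place of endothelial Slc30a10 relative to the astrocyte means was not settled.

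The genes with the class pattern closest to each member were found by Pearson's r of log2(CPM + 1) class means over the 9 classes, among 14019 genes, as a description. They were Ilk, Aldoc and Gstm1 for Mt1 (r = 0.994 to 0.995), Lamb2, Id1 and Gfap for Mt2, and Mrpl27, Gstm5 and Tmem14c for Mt3. For the exporters they were Id3, Fdps and Gm33037 (Slc30a1), A830036E02Rik, Olfr46 and C2cd2l (Slc30a3), Ikzf2, Gm29114 and Meis1 (Slc30a4), and Glipr2, Vcl and Inca1 (Slc30a10, r = 0.912 to 0.963). For the importers they were Grp, Etv1 and Slc17a6 (Slc39a10, r = 0.868 to 0.890) and Mmrn2, Pigl and Mmd2 (Slc39a14). The classes of a mouse share a library, so these points are not independent.

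Within astrocytes, the metallothioneins varied from mouse to mouse over a wide range in the awake and GA mice, and less among the 4 ketamine mice. Mt1 was at 47.6 CPM in the lowest of the WT-Awake mice, at a median of 247 and at 1058 in the highest, and the fAD-Awake mice had 783, 864 and 89.9 CPM. Under GA, the WT mice had 1073, 155 and 160 CPM, and the fAD mice 1024, 1002, 171 and 108. With ketamine, Mt1 was at 197 and 305 in WT and at 305 and 374 in fAD mice. The awake, GA and ketamine mice overlapped, and each of the awake and GA groups held mice from both ends of the range. Mt2 spanned 14.2 to 293 CPM and Mt3 13.4 to 572 CPM over the 20 mice, against 47.6 to 1073 for Mt1.

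These levels differed between the runs of mouse numbers, as cut here. Mt1 in astrocytes averaged 984 CPM in mice 1 to 4 (783 to 1073), 701 in mice 10 to 13 (301 to 1002), 135 in mice 14 to 17 (89.9 to 171), 105 in mice 18 to 20 (47.6 to 160) and 275 in mice 25 to 29 (193 to 374). Mt3 had run means of 411, 241, 38.7, 38.5 and 67.2 CPM in the same order. The 3 genes rose and fell together over the 20 mice. On the log2 scale, Pearson's r was 0.96 between Mt1 and Mt2 (Spearman's rho 0.97), 0.96 between Mt1 and Mt3 (rho 0.91) and 0.88 between Mt2 and Mt3 (rho 0.88). Each had a permutation p of 1e-05, the smallest that 100000 permutations can give, and an adjusted p of 1.33e-05 over the 4 relations computed. Without the 2 mice farthest from the median, r was 0.95, 0.95 and 0.86, and with run means removed it was 0.94, 0.83 and 0.71. A run held at most 5 mice, too few for an r of its own. The mitochondrial share of a library and its astrocyte Mt1 level gave r = 0.58 (permutation p = 0.00836, adjusted p = 0.00836; rho 0.44, permutation p = 0.0547, adjusted p = 0.0547), and 0.23 with run means removed. It was 0.46 without the 2 farthest mice. The p values of these 4 relations take the 20 mice as independent, so differences between runs enter them. No p was computed with run means removed.

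**Figure D2:**
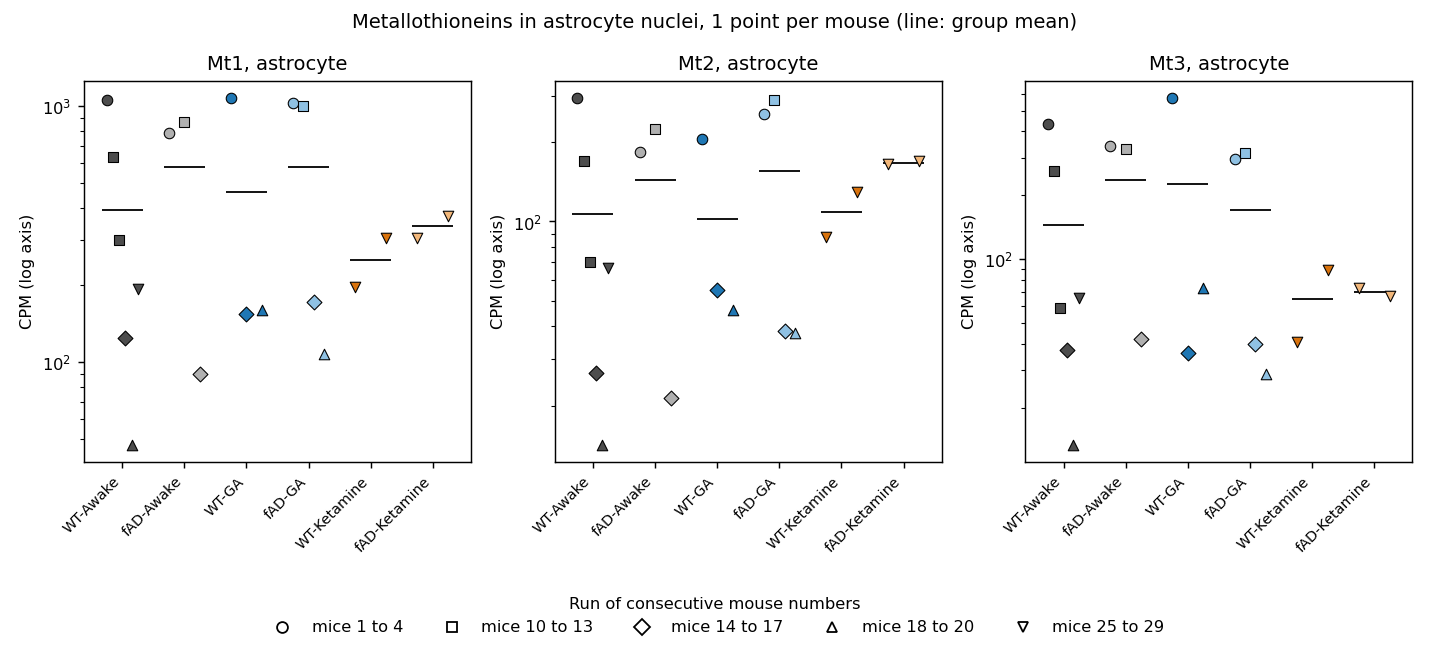
Mt1, Mt2 and Mt3 in astrocyte nuclei (y axis, CPM on a log axis) for each of 20 mice in 6 groups (x axis), with the run of mouse numbers given by the symbol and the group mean by a line. Mice 1 to 4 sit between 783 and 1073 CPM of Mt1 whatever their group, and mice 14 to 20 between 47.6 and 171 CPM.

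Mt1 in several other classes went with its astrocyte level from mouse to mouse. Taken within each mouse, Mt1 in DG granule nuclei was at a median of 10.0% of the astrocyte level (5.40% to 17.4% over 20 mice), in CA1 nuclei at 5.91% (4.04% to 10.9%) and in oligodendrocytes at 27.8% (15.1% to 57.8%). The ratio was looser in OPCs, with a median of 16.5% (2.32% to 38.4%), and in microglia, with 31.9% (3.62% to 85.7%). The 13 astrocyte markers, taken in the same way, had a median of 1.20% in DG granule, 0.947% in CA1 and 2.00% in oligodendrocyte nuclei, with single markers up to 54.0%, 8.62% and 5.46%. Nuclei were assigned to classes by these same markers, so their low share outside astrocytes was in part set by the assignment. It is no measure of RNA free in the nuclei suspension. Mt3 in DG granule, CA1 and oligodendrocyte nuclei was at 25.2%, 19.5% and 50.1% of the astrocyte level. Whether RNA free in the nuclei suspension contributed to the metallothionein counts of neurons was not tested.

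**Figure D3:**
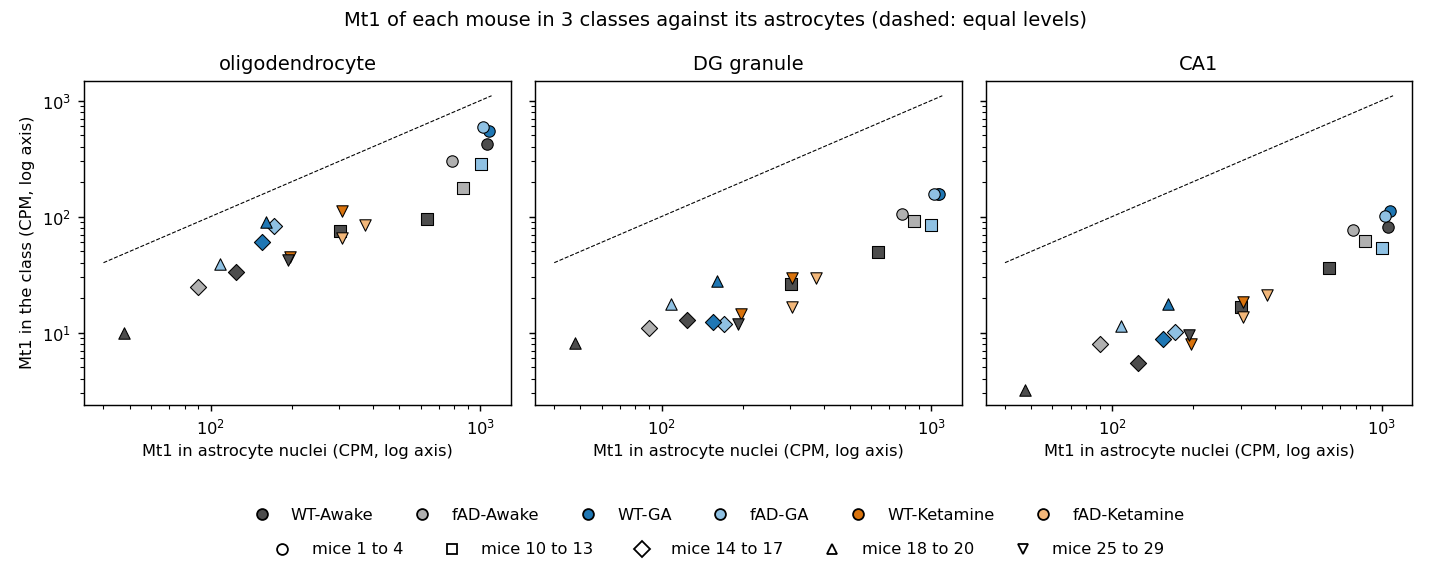
Mt1 of each mouse in oligodendrocyte, DG granule and CA1 nuclei (y axis, CPM, log axis) against its level in the astrocyte nuclei of that mouse (x axis, CPM, log axis), with groups by colour and runs of mouse numbers by symbol. The points lie below the dashed line of equal levels, at a median of 27.8%, 10.0% and 5.91% of the astrocyte level.

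The comparison of GA with the awake state addressed how anesthesia changes the hippocampal nuclei of mice of either genotype. The called pairs were 3 of 67 (4.48%), near the 4.36% of all gene and class pairs. In astrocytes Slc30a10, the manganese exporter, fell. Slc39a14, the manganese, iron and zinc importer, rose in astrocytes and oligodendrocytes. Whether glia differed from neurons, or transporters from metallothioneins, was not tested. Astrocyte Slc30a10 was at 61.8 CPM in the lowest, 82.0 in the median and 96.4 in the highest of the WT-Awake mice and at 54.7, 61.2 and 97.0 in fAD-Awake mice. Under GA it was at 46.3, 44.1 and 20.1 CPM in WT and at 25.3, 36.5, 36.0 and 31.8 CPM in fAD mice. Every GA mouse lay below every awake mouse. The mean of 34.3 ± 9.47 CPM (SD, n = 7) against 77.3 ± 16.9 (n = 9) gave a log2 fold change of -1.12 ± 0.19 (SE; edgeR adjusted p = 0.000894). It remained below the threshold whichever mouse was left out (-1.23 to -0.97), and the log2 ratio of run means was -0.76, -1.09, -1.26 and -1.26 in the 4 runs that held both states. In mice 10 to 13 there was 1 GA mouse, and in mice 18 to 20 there was 1 awake mouse. In the other 5 classes with enough Slc30a10 counts the log2 fold change was -0.05 to 0.49 and none was called (smallest adjusted p = 0.226). Whether astrocytes differed from these classes was not tested.

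Slc39a14 rose under GA in both astrocytes and oligodendrocytes. In astrocytes it was at 27.7 CPM in the lowest, 49.9 in the median and 63.1 in the highest of the WT-Awake mice and at 27.0, 48.8 and 34.7 in fAD-Awake mice. It reached 76.8, 86.4 and 70.2 CPM in WT-GA and 71.5, 43.8, 73.2 and 82.4 CPM in fAD-GA mice. Of the GA mice, 6 of 7 lay above every awake mouse, the exception being mouse 11 at 43.8 CPM. The log2 fold change was 0.80 ± 0.19 (adjusted p = 0.0109), and without mice 1 to 4 it was 0.66 and missed the threshold (adjusted p = 0.0906). The log2 ratios within runs were 1.23, -0.05, 0.98 and 0.51. In oligodendrocytes Slc39a14 was at 8.96 to 26.2 CPM in the WT-Awake mice (median 18.2) and at 17.2, 10.5 and 17.2 in fAD-Awake mice, against 22.5, 40.3 and 50.1 in WT-GA and 41.5, 21.5, 25.9 and 34.8 in fAD-GA mice. The groups overlapped through WT-Awake mouse 12 (26.2 CPM, 3 UMIs). The log2 fold change there was 1.09 ± 0.24 (adjusted p = 0.00828), with 0.84, 0.50, 0.84 and 1.25 within runs. In the 6 other classes tested, Slc39a14 had log2 fold changes of -0.15 to 0.10 and none was called (smallest adjusted p = 0.514).

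**Figure D4:**
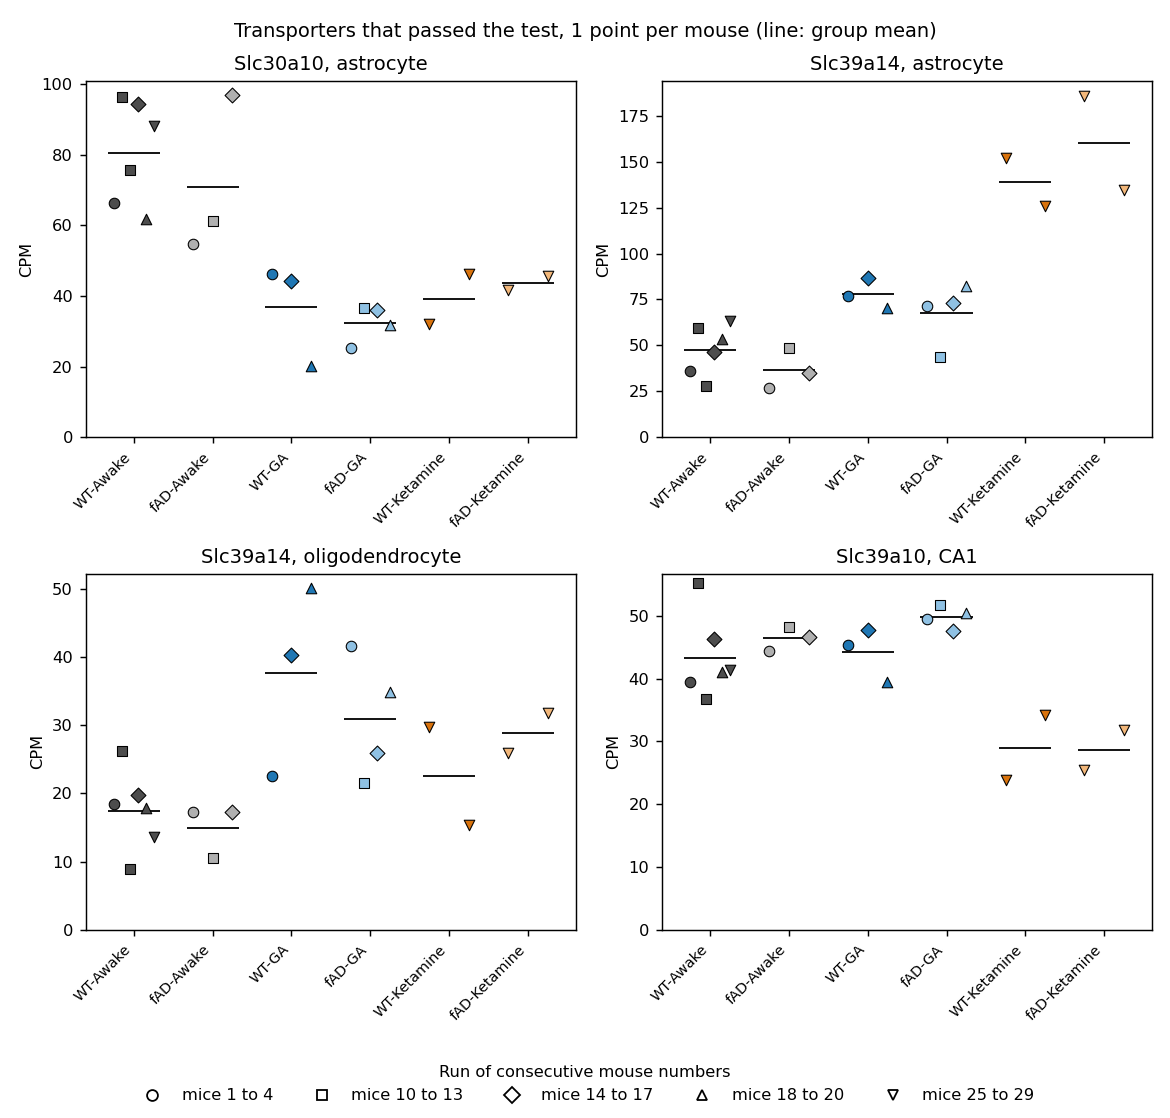
The 4 transporter and class pairs that passed the test in any comparison, in CPM (y axis, from 0) for each mouse in 6 groups (x axis), with runs of mouse numbers by symbol and group means by lines. Astrocyte Slc30a10 lies at 54.7 to 97.0 CPM in awake and at 20.1 to 46.3 in anesthetized mice, and astrocyte Slc39a14 climbs from 27.0 to 63.1 CPM in wake to 126 to 186 CPM with ketamine.

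Over all 9 members and 9 classes, 67 of 81 pairs had enough counts for the test, and 3 of these (4.48%) were called for GA against wake, with 2 higher and 1 lower. Of all gene and class pairs tested, 4.36% were called (2.55% higher and 1.81% lower), so the share among the members was that of genes at large. At an unadjusted p under 0.05 there were 5 pairs (7.46%), against 16.7% of all pairs. In astrocytes, where 8.0% of genes were called, 2 of the 9 members were. In oligodendrocytes it was 1 of 7, against 6.53% of genes. The metallothioneins had log2 fold changes of -0.13 to 0.79 over the classes and no call. Their standard errors were wide, at 0.63, 0.59 and 0.70 for Mt1, Mt2 and Mt3 in astrocytes around log2 fold changes of 0.12, 0.03 and 0.09, and the 95% interval for Mt1 ran from -1.12 to 1.35. Within runs, the GA mice had the higher mean of astrocyte Mt1 in 4 of 4 runs, by log2 ratios of 0.19, 0.74, 0.60 and 1.50. In mice 10 to 13 the GA value was that of 1 mouse, and in mice 18 to 20 the awake value was that of 1 mouse. For astrocyte Mt2 the ratios were -0.05, 0.90, 0.96 and 1.56 and for Mt3 0.16, 0.56, -0.07 and 1.94, each with 1 run in the other direction. In oligodendrocytes the Mt1 ratios were 0.65, 1.30, 1.30 and 2.71. With runs as a block, the log2 fold change of Mt1 was 0.62 ± 0.21 in astrocytes (adjusted p = 0.0607) and 1.13 ± 0.24 in oligodendrocytes (adjusted p = 0.00237), where it was 0.79 ± 0.69 without the block (adjusted p = 0.618).

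**Figure D5:**
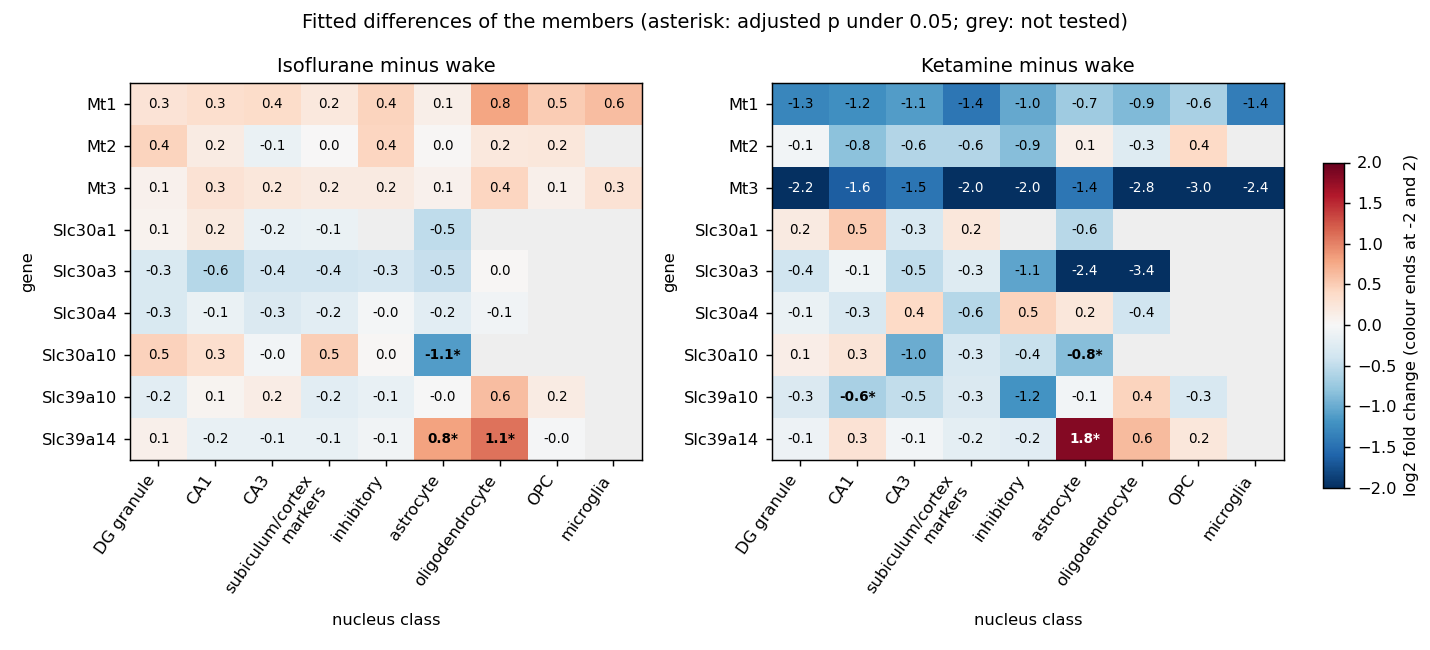
Fitted log2 fold changes (colour and number) of the 9 members (y axis) in 9 classes (x axis), for isoflurane against wake on the left and ketamine against wake on the right, with asterisks for an adjusted p under 0.05 and grey for pairs with too few counts to test. The called pairs are Slc30a10 and Slc39a14 in astrocytes on both sides, Slc39a14 in oligodendrocytes with isoflurane and Slc39a10 in CA1 with ketamine.

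Ketamine with xylazine gave the same directions in astrocytes, with a larger fitted difference for the importer. Slc39a14 in astrocytes was at 152 and 126 CPM in WT-Ketamine and at 186 and 134 CPM in fAD-Ketamine mice, above all 9 awake mice, whose mean was 44.1 ± 13.4 CPM (SD). The log2 fold change was 1.83 ± 0.21 (adjusted p = 5.5e-05). It was also above all 7 GA mice, by 1.03 ± 0.21 (adjusted p = 0.00719; without WT-Ketamine mouse 27 adjusted p = 0.051), which was 0.51 ± 0.43 with runs as a block (adjusted p = 0.834). Slc30a10 was at 32.1 and 46.1 CPM in WT and at 41.7 and 45.8 CPM in fAD mice, below all 9 awake mice, with a log2 fold change of -0.85 ± 0.23 (adjusted p = 0.0297) that missed the threshold in 5 of 20 fits with 1 mouse left out (fAD-Awake mouse 17 or any ketamine mouse, with adjusted p up to 0.165). The awake mouse of the same run, mouse 29, had 63.1 CPM of Slc39a14 and 88.3 CPM of Slc30a10, on the awake side of all 4 ketamine mice. The GA and ketamine comparisons share the awake mice.

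In CA1 nuclei the zinc importer Slc39a10 fell with ketamine. It was at 23.9 and 34.1 CPM in WT-Ketamine and 25.4 and 31.9 CPM in fAD-Ketamine mice, against 36.7 to 55.1 in WT-Awake mice (median 41.2) and 44.5, 48.3 and 46.7 CPM in fAD-Awake mice. The GA mice had 45.3, 47.7 and 39.5 CPM in WT and 49.5, 51.7, 47.6 and 50.5 CPM in fAD, so all 4 ketamine mice lay below all 16 others. The log2 fold change was -0.64 ± 0.14 against wake (adjusted p = 0.00885) and -0.70 ± 0.14 against GA (adjusted p = 0.00903), and each missed the threshold without mouse 25 or mouse 27 (adjusted p up to 0.103 and 0.105). Mouse 29 had 41.4 CPM. In the other neuronal groups Slc39a10 had log2 fold changes of -0.29 to -1.20 against wake and none was called (smallest adjusted p = 0.0774, in inhibitory nuclei).

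For ketamine against wake, 3 of 67 pairs were called (4.48%), with 1 higher and 2 lower, where 6.6% of all gene and class pairs were called (3.46% higher and 3.14% lower). In astrocytes it was 2 of the 9 members, against 7.96% of genes, and in CA1 1 of 9, against 9.32%. At an unadjusted p under 0.05 there were 12 pairs (17.9%), against 24.2% of all pairs. For ketamine against GA it was 2 of 67 (2.99%), 1 higher and 1 lower, against 4.54% of all (2.18% higher and 2.36% lower). Mt3 had negative log2 fold changes in all 9 classes with ketamine against wake, from -1.45 to -2.97, none of them called. Within the run of the ketamine mice this difference was absent in astrocytes, with a mean of 67.5 CPM in the 4 ketamine mice and 65.6 CPM in awake mouse 29 (log2 ratio 0.04). In astrocytes Mt3 was at 40.6 to 89.1 CPM in the 4 ketamine mice, at 13.4 to 435 CPM in awake mice and at 28.7 to 572 CPM in GA mice. Slc30a3 in oligodendrocytes, at a fitted -3.36 (adjusted p = 0.0841), had 0 UMIs in 2 of the ketamine mice and 3 in each of the others, so this fitted value is not a bound on the change. With runs of mouse numbers as a block, where mouse 29 alone stood for wake in the ketamine run, 0 pairs were called for either ketamine comparison, at log2 fold changes of 1.32 ± 0.41 for astrocyte Slc39a14, -0.95 ± 0.34 for astrocyte Slc30a10 and -0.56 ± 0.28 for CA1 Slc39a10 against wake (adjusted p = 0.389, 0.468 and 0.531). The run and the drug cannot be told apart beyond that animal.

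Markers of other cell types were followed in the classes that carried these changes. In astrocyte nuclei, the summed fibroblast markers were at 211 to 427 CPM in awake, 249 to 454 in GA and 322 to 679 CPM in ketamine mice, and the summed endothelial markers at 479 to 823, 236 to 363 and 563 to 797 CPM. The endothelial list was thus lower in every GA mouse than in every awake mouse, as Slc30a10 was, but not in the ketamine mice. Slco1c1, a transporter of thyroid hormone and organic anions that astrocytes also express, held 92.5% of it there, and the other 9 markers summed to 8.17 to 211 CPM in awake, 20.4 to 64.7 in GA and 23.4 to 33.4 in ketamine mice. The OPC markers in astrocytes were at 1235 to 1793 CPM in awake, 956 to 1405 in GA and 1166 to 1288 in ketamine mice. The DG granule markers in astrocytes were at 1803 to 2748 CPM in awake, 1152 to 2482 in GA and 1339 to 1577 in ketamine mice. They were thus lower in every ketamine mouse than in every awake mouse, as Slc30a10 was, while the GA range overlapped both. The CA1, CA3, subiculum and cortex, and inhibitory lists in astrocytes overlapped between awake and anesthetized mice. The summed mural markers in astrocytes were at 125 to 267 CPM in awake, 198 to 310 in GA and 184 to 256 in ketamine mice, and the oligodendrocyte markers at 218 to 1509, 340 to 1167 and 190 to 500.0 CPM. The ependymal and choroid plexus markers in astrocytes were at 50.8 to 2002 CPM in awake, 43.4 to 1475 in GA and 28.2 to 645 in ketamine mice. Their medians of 61.8, 82.4 and 216 CPM had the same order as astrocyte Slc39a14, while the ranges overlapped. In oligodendrocyte nuclei the astrocyte markers were at 369 to 1289 CPM in awake and 266 to 888 in GA mice. The DG granule markers there were at 884 to 1169 CPM in awake and 428 to 935 in GA mice, with medians of 1061 and 615. The CA3 markers were at 596 to 1104 and 775 to 2342 CPM, with medians of 983 and 1366. In CA1 nuclei the fibroblast markers were at 59.3 to 122 CPM in awake and 100.3 to 224 CPM in ketamine mice, and the astrocyte markers at 757 to 1381 and 890 to 1140 CPM. The CA3 markers there were at 285 to 396 CPM in awake, 292 to 347 in GA and 210 to 258 in ketamine mice. They thus split the mice as CA1 Slc39a10 did. The OPC markers in CA1 were at 732 to 1065 CPM in awake and 617 to 694 in ketamine mice, and the GA range overlapped both. For the other lists in CA1 the awake and ketamine ranges overlapped. None of these marker lists was entirely at 0, and their part in the transporter changes was not tested.

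Among 20 other zinc transporter and zinc response genes, 0 were called for GA against wake in any class. With ketamine, Mtf1, the metal-sensing factor, was lower in CA1 (23.8 ± 2.82 CPM in wake and 15.8 with ketamine, log2 fold change -0.61 ± 0.18, adjusted p = 0.0356), Slc39a2 was lower in DG granule nuclei (-1.10 ± 0.33, adjusted p = 0.0347) and Slc39a3 was lower in the subiculum and cortex marker group (-1.30 ± 0.34, adjusted p = 0.0245). These are 3 of 108 gene and class pairs tested (2.78%), below the 6.6% of all pairs. In CA1, 15 of the 20 were tested and had a median log2 fold change of -0.26, against -0.03 for all genes.

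Of 21 copper and iron genes, 18 were tested in astrocytes, where 1 was called higher and 0 lower for GA against wake, about the share of all astrocyte genes (8.0% called, 5.05% higher), with a median log2 fold change of -0.01 against 0.01 for all genes. That gene was Heph, the ferroxidase hephaestin that works with the iron exporter, at 37.2 ± 10.5 CPM in wake, 139 under GA and 73.1 with ketamine. Its log2 fold change was 1.90 ± 0.22 under GA (adjusted p = 3.74e-05) and 0.99 ± 0.26 with ketamine (adjusted p = 0.0261), and it was 0.90 lower with ketamine than under GA (log2 fold change -0.90 ± 0.27, adjusted p = 0.0429). That last call was made in 10 of 20 fits with 1 mouse left out, and with runs as a block the value was -0.05 (adjusted p = 0.995). Over all classes 1 of 132 pairs of this list was called for GA against wake (0.758%, against 4.36% of all pairs) and 6 of 132 for ketamine against wake (4.55%, against 6.6%). The copper ATPase gene Atp7a was lower with ketamine in CA1 (-0.93 ± 0.21, adjusted p = 0.00929), CA3 (-0.90 ± 0.25, adjusted p = 0.0448) and the subiculum and cortex marker group (-1.24 ± 0.24, adjusted p = 0.00541). With runs as a block its log2 fold changes were -0.31, -0.63 and -0.46 in these classes. It was called in 18, 8 and 20 of 20 fits with 1 mouse left out. Aco1, an iron-responsive regulator, was higher in DG granule nuclei (0.87 ± 0.19) and Trf, transferrin, in the subiculum and cortex marker group (1.42 ± 0.34).

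The glucocorticoid-induced genes were listed because glucocorticoids also induce Mt1 and Mt2. In astrocytes 4 of the 9 tested rose under GA and 0 fell, where 5.05% of all genes rose, with a median log2 fold change of 1.07 against 0.01 for all genes. Fkbp5, a co-chaperone of the glucocorticoid receptor, went from 25.6 ± 11.9 CPM in wake to 252 under GA (log2 fold change 3.18 ± 0.48, adjusted p = 0.000379), and Arrdc2, Plin4 and Tsc22d3 had log2 fold changes of 2.41, 1.84 and 1.11. In oligodendrocytes 4 of 10 rose and 0 fell, namely Plin4 (2.65 ± 0.45), Cdkn1a (2.33 ± 0.64), Per1 (1.45 ± 0.30) and Arrdc2 (1.34 ± 0.39), with a median of 1.24 against 0.02 for all genes, of which 4.1% rose. Ketamine mice had less Tsc22d3 (log2 fold change -1.24 ± 0.31, adjusted p = 0.019) and Arrdc2 (-1.72 ± 0.44, adjusted p = 0.0192) in astrocytes than GA mice, each called in 16 of 20 fits with 1 mouse left out and neither with runs as a block (0.01 and -0.91). Against wake, 2 of 9 rose with ketamine in astrocytes (Fkbp5 1.90 and Plin4 1.72; 5.08% of all genes rose) and 1 of 10 in oligodendrocytes (Plin4 2.10; 2.39% of all genes rose). In the subiculum and cortex marker group, 3 of 6 fell under GA (Per1 -0.85, Errfi1 -0.57 and Sgk1 -0.51; 3.37% of all genes fell), and the kinase gene Sgk1 also fell in inhibitory nuclei (-0.69 under GA and -0.95 with ketamine) and in CA1 with ketamine (-0.49), whereas Fkbp5 rose in inhibitory nuclei with ketamine (0.91 ± 0.21, adjusted p = 0.0255). With runs as a block, 12 of the 13 GA calls in the copper, iron and glucocorticoid lists were kept and 0 of the 16 calls of ketamine against wake in the 3 lists. With each mouse left out in turn, 8 of the 13 and 1 of the 16 were called in all 20 fits.

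Genotype was tested awake and under GA, and not in the 2 WT and 2 fAD ketamine mice. Slc30a1 in CA1 nuclei, the value behind the choice of these genes, was at 2.20 CPM in the lowest, 2.79 in the median and 5.30 in the highest of the libraries labelled WT-Awake and at 4.65, 8.61 and 6.33 CPM in those labelled fAD-Awake. These came from 4 to 11 UMIs per mouse in WT and 9, 23 and 19 UMIs in fAD, and the groups overlapped through mouse 1. Under GA, a set of mice that did not enter that choice, Slc30a1 in CA1 was at 6.59, 5.37 and 2.76 CPM in WT and at 4.53, 4.60, 6.69 and 5.75 CPM in fAD, a log2 fold change of 0.16 ± 0.37 (adjusted p = 1.0), whose 95% interval ran from -0.56 to 0.87. With ketamine, the WT mice had 6.18 and 10.2 CPM and the fAD mice 6.81 and 3.78. Awake, Slc30a1 had log2 fold changes of -0.07 in DG granule, -0.07 in CA3 and 0.04 in astrocyte nuclei (SE 0.40, 0.49 and 0.34), and of 0.50 (SE 0.57) in the subiculum and cortex marker group, with means of 6.70 CPM in fAD-Awake and 4.45 in WT-Awake mice. These values come from the same awake mice as those of CA1 and are no separate support for them.

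No pair was called for genotype. With edgeR, 0 of 67 pairs passed for fAD against WT under GA, 0 of 58 for fAD against WT awake outside CA1, and 0 of 58 for the interaction of genotype and isoflurane outside CA1, where 0.0% of all genes were called in each. At an unadjusted p under 0.05 there were 0, 1 and 1 pairs (0.0%, 1.72% and 1.72%), against 2.09%, 2.30% and 3.59% of all pairs in the same classes, and DESeq2 also called 0 in each. Because Prnp ranges overlapped between the labels in awake and GA mice, differences between genotypes rest on the libraries as labelled.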

How the data were processed

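Single nuclei libraries of hippocampus from 20 mice, 1 library each, were analysed. The authors deposited raw UMI counts per gene and nucleus, made with Cell Ranger 5.0.0 per the labels with introns counted (mm10), and the study's methods also name removal of background RNA by CellBender, a step whose presence in these counts could not be told from the files. Nuclei were assigned to a class when its markers led all others, with nuclei led by 2 classes left out as possible doublets, and counts were summed per mouse and class. A mouse needed 20 nuclei in a class. The sums were tested with edgeR 4.0.16 (R 4.3.3; TMM scaling, filterByExpr, quasi-likelihood test, Benjamini-Hochberg adjustment over all genes of a class, threshold 0.05) in 1 fit of the 6 groups, with state contrasts averaged over genotype. DESeq2 1.42.0, no gene filter, only the groups compared, runs of mouse numbers as a block, a stricter gate, the fit without mice 1 to 4 and each mouse left out were alternatives. Levels are CPM with SD over mice, from TMM-adjusted totals in the classes tested and raw totals in the pooled nuclei. Log2 fold changes carry SE. Relations between genes used 100000 permutations. The fits were also run on simulated counts for astrocyte and CA1 nuclei. These were drawn without differences between runs, so they cannot tell how the fits behave where runs differ. Total counts of 9243992 to 25394891 UMIs per mouse limit low genes such as Slc30a1. Genes named are the 9 members, called genes of the lists, and the 3 genes with the closest class pattern to each member. The members and lists were chosen with earlier results of these data known. Promoter sequences are from RefSeq (GRCm38.p6), with gene positions from GENCODE. Separate mice are the replicates.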

Additional observations from a re-analysis of the deposited data

Results flagged for a closer look

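Among 20 sets of mice examined for a value far from the rest, 2 had one, and both belonged to WT-Awake mouse 1. The first, Slc30a1 in CA1, is among the values behind the choice of these genes, is only a description and is not set against chance. That leaves Mt1 in oligodendrocytes, where chance gives about 1 in 20 such sets. Slc30a1 in CA1 nuclei was 5.30 CPM in that mouse, with the nearest WT-Awake mouse at 2.97 CPM. Mt1 in oligodendrocytes was 426 CPM in that mouse, with the nearest at 96.0 CPM. Mouse 1 is one of the 4 mice of the run with the high mitochondrial share, whose part in these values was not tested.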

How the results depend on the processing

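For GA against wake the number of called pairs was 2 to 4 under the alternatives, against 3. For ketamine against wake, where 3 were called, it was 11 with no gene filter, 0 with runs of mouse numbers as a replicate block, and 1 to 3 with 1 mouse left out. For ketamine against GA, where 2 were called, it was 4 with DESeq2, 11 with no gene filter, 0 with the block and 0 to 3 with 1 mouse left out. Genotype gave 0 in all of them. Replicate numbers are not shared between groups, so the block is of runs and pairs no samples. Fits without the block, in which runs hold unequal numbers of awake and GA mice, changed the direction of the metallothioneins in astrocytes, whereas Mt1 was higher under GA within 4 of 4 runs and at 0.62 ± 0.21 with the block. Of these runs, mice 10 to 13 held 1 GA mouse and mice 18 to 20 held 1 awake mouse. Without mice 1 to 4, GA against wake gave log2 fold changes of -0.43 for Mt1, -0.20 for Mt2 and -0.54 for Mt3. Mt2 was at -0.01 with no gene filter (-0.0070) and with the stricter gate (-0.0087). With 1 mouse left out, the range was -0.66 to 0.43 for Mt1, -0.48 to 0.38 for Mt2 and -0.93 to 0.51 for Mt3, and for Mt1 in oligodendrocytes -0.026 to 1.48. With the block, Mt1 in astrocytes was at 0.49 for ketamine against wake (-0.71 without it) and Tsc22d3 at 0.01 (0.0074) for ketamine against GA (-1.24 without it). Mt2 for ketamine against wake ranged from -0.13 to 0.47, and Slc30a1 in CA1 for genotype under GA from -0.13 to 0.41, with 1 mouse left out. The cause was not tested. Leaving mouse 10 out of the endothelial pool, chosen after seeing the data, moved Slc39a10 from 563 to 429 CPM and Mt1 from 447 to 578 CPM. Low counts limit Slc30a1, Slc30a3 and Slc30a4 in glia, and microglia were few.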
